A study of Homo sapiens with 6 samples.

Results

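The replication-dependent histone genes were followed in RNA-seq libraries of HK-2 cells, an immortalized line of human proximal tubular epithelium. They were taken by name from the deposited table as every row whose symbol begins with HIST1H, HIST2H, HIST3H or HIST4H, leaving out rows with PS in the symbol. This gave 75 genes of the 58825 in the table, after 14 of the 89 matching rows were left out for PS. The study compared 3 libraries of untreated cells (Control) with 3 libraries of cells given 25 μg/ml oxidized low-density lipoprotein (OX-LDL) for 48 h. HK-2 cells were kept in medium low in serum before a treatment, and the labels give no time for the Control cells. Neither group carried a genetic change by its labels. Nothing in the labels says whether the 3 libraries of a group came from separate cultures, so the p-values below measure the spread between these libraries, which may be technical.

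Core histones H2A, H2B, H3 and H4 form the protein spool around which DNA is wound, and linker histone H1 binds the DNA between spools. The replication-dependent genes supply these proteins while DNA is copied in S phase. Their mRNAs are unusual among those of animal cells, because they normally end in a conserved stem-loop and carry no poly(A) tail. Stem-loop binding protein (SLBP) binds the stem-loop, and the U7 small nuclear ribonucleoprotein directs the cut just after it. Some of these genes can also make longer, polyadenylated transcripts by reading past the stem-loop to a poly(A) signal. The libraries were made from RNA selected on oligo(dT), which captures poly(A) tails, so the values below describe whatever histone RNA came through that selection and not the whole pool. Bulk RNA also cannot separate fewer cells making a transcript from less transcript per cell.

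Of the 75 genes, 6 encode H1, 17 H2A, 22 H2B, 15 H3 and 15 H4 by their symbols. The HIST1 group of 55 genes lies on chromosome 6, the 15 HIST2 genes and 4 HIST3 genes on chromosome 1, and the single HIST4 gene on chromosome 12. The table lists 5 of them as pseudogenes, namely HIST2H2BA, HIST2H2BB, HIST2H2BD, HIST2H3DP1 and HIST3H2BA.

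The stem-loop was looked for in the GENCODE release 29 transcript models as an inverted repeat with a 6-base stem and a 4-base loop shared by the 3′ ends of these genes. It was found in a model of 31 genes, in 5 spellings. The models of 34 genes hold the coding sequence only, so a stem-loop past it could not be found there. The genes without a match are therefore not shown to lack the stem-loop. The commonest spelling was shared by 18 genes, and 2 others were shared by 5 genes each. The following 26-base sites are printed because they belong to genes described below and, with HIST1H4J, show 4 of the 5 spellings, with the stem-loop in capitals. The search allowed at most 2 mismatches to the commonest spelling, so it set how far the spellings could differ.
HIST1H2AC: ccaaaGGCTCTTTTCAGAGCCcccct
HIST2H2AA3: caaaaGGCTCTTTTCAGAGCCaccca
HIST3H2A: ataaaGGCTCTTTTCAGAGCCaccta
HIST1H2BC: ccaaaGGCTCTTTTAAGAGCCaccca
HIST1H2BD: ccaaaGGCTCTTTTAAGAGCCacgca
HIST2H2BD: ccaaaGGCTCTTTTCAGGGCCactta
HIST1H2AG: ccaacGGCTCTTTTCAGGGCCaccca
HIST1H4J: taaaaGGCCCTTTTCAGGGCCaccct
The sites of HIST2H2AA3 and HIST3H2A carried the commonest spelling, as did HIST1H2AC. HIST2H2BD and HIST1H2AG were the only 2 genes with the spelling printed for them. A site of this kind is a match of letters and not a measurement of processing.

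RefSeq promoter windows, which run from 250 bases before to 50 bases after a gene's start on GRCh38.p14, were matched for 64 of the 75 genes. Searched on both strands, the letters TATAAA were in 67.2% of these windows and in 11.5% of all 35116 windows of the same length. CCAAT was in 84.4% against 34.6%, and the octamer ATTTGCAT in 37.5% against 1.77%. The octamer was in 68.8% of the H2A and 76.5% of the H2B windows and in none of the H1, H3 or H4 windows. Some H2A and H2B genes start close together on opposite strands, so the same octamer can count for both. The windows of HIST1H2AC and HIST1H2BC, for example, share a run of 255 bases. The windows are therefore not independent, and the shares do not tell which gene of a pair the octamer serves. CCAAT was in every H1, H2A, H2B and H3 window and in 23.1% of the H4 windows. The 3 windows below belong to the highest H2B, H2A and H1 genes and are printed with the motifs of either strand in capitals. Where TATAAA and its reverse complement overlap, the capitals run together.
HIST1H2BK, chr6:27146806-27147105, minus strand: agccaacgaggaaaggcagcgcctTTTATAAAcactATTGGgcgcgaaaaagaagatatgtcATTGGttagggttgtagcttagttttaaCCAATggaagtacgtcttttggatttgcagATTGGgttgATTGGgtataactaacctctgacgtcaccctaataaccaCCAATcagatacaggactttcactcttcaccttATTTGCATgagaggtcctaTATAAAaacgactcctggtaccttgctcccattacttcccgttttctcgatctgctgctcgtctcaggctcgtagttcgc
HIST1H2AC, chr6:26123922-26124221, plus strand: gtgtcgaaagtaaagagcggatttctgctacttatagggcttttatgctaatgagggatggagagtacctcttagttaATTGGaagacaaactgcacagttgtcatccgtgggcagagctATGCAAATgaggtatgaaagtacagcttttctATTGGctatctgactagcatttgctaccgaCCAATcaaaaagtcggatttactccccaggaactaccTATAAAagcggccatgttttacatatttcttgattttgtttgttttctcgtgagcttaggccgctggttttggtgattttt
HIST1H1C, chr6:26056421-26056720, minus strand: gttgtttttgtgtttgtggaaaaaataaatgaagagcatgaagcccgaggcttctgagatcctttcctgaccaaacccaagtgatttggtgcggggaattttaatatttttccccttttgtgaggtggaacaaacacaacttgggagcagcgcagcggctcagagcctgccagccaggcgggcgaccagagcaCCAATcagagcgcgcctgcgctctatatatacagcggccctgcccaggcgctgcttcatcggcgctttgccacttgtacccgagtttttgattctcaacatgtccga
Among the 19 windows of genes detected in all 6 libraries, 63.2% held TATAAA, 89.5% CCAAT and 36.8% the octamer. Among the 25 windows of genes detected in none, the shares were 72.0%, 88.0% and 36.0%.

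The libraries held 62561347 to 76797607 deposited counts, or 15640337 to 19199402 read pairs at about 4 counts per pair. The OX-LDL 1 library was the shallowest. RNA known to lack a poly(A) tail, listed as 15 small noncoding RNAs, was at 0 for 8 of its 16 rows in every library. Its summed level was 18.9 to 33.4 FPKM (fragments scaled to transcript length in kilobases and to library size) in Control and 9.41 to 16.9 FPKM in OX-LDL, without overlap. RN7SL1 and RN7SL2, the RNA of the signal recognition particle, made up most of it. Only 6 of the 16 rows were tested, with a median log2 fold change of -1.03 (OX-LDL over Control). None of these passed in edgeR after Benjamini-Hochberg adjustment. The part of this carry-over in the histone values was not tested. Of the renal epithelial markers, KRT8, KRT18 and PAX8 had group means of at least 19.4 FPKM, whereas LRP2 was at 0 in all 6 libraries and CUBN, SLC34A1, ANPEP and AQP1 had group means of at most 0.0680 FPKM. General epithelial genes of the label were thus present, and the transport genes that define the proximal tubule were at or near 0. Endothelial markers summed to at most 0.0957 FPKM. The blood cell list summed to 3.14 to 7.74 FPKM in Control and 9.16 to 14.0 in OX-LDL, nearly all of it CD68, while the leukocyte gene PTPRC was at 0 in the Control libraries. The fibroblast list summed to 0.520 to 0.743 FPKM in Control and 0.698 to 0.966 in OX-LDL. The part of these markers in the histone values was not tested.

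Histone RNA was scarce in every library. The 75 genes together took 0.00402 to 0.00663% of all counts. Their summed level was 49.6, 56.9 and 36.2 FPKM in Control 1 to 3 and 58.4, 40.8 and 47.3 FPKM in OX-LDL 1 to 3. The lowest sum was in Control 3 and the highest in OX-LDL 1, and the groups overlapped, with 47.6 ± 10.5 FPKM in Control and 48.8 ± 8.90 in OX-LDL (mean ± SD, n = 3). Only 9 of the 75 genes (12%) reached a mean of 1 FPKM, compared with 54.4% of the 19727 protein-coding rows.

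A gene was taken as detected in a library above 12 counts, which is 3 read pairs. By this limit 20 genes were detected in all 6 libraries, 22 in 1 to 5 libraries and 33 in none. Of the 33, 9 had no count in any library: HIST1H2AA, HIST1H2AK, HIST1H2BA, HIST1H3F, HIST1H4B, HIST1H4F, HIST1H4G, HIST2H2BB and HIST3H2BA. A count of 0 at this depth, in RNA selected on poly(A) tails, does not show that a gene was silent. H2B had the most genes detected throughout, 8 of 22, followed by H2A with 5 of 17, H3 with 3 of 15, H4 with 3 of 15 and H1 with 1 of 6. The plot of detection by class shows these counts.

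**Figure D1:**
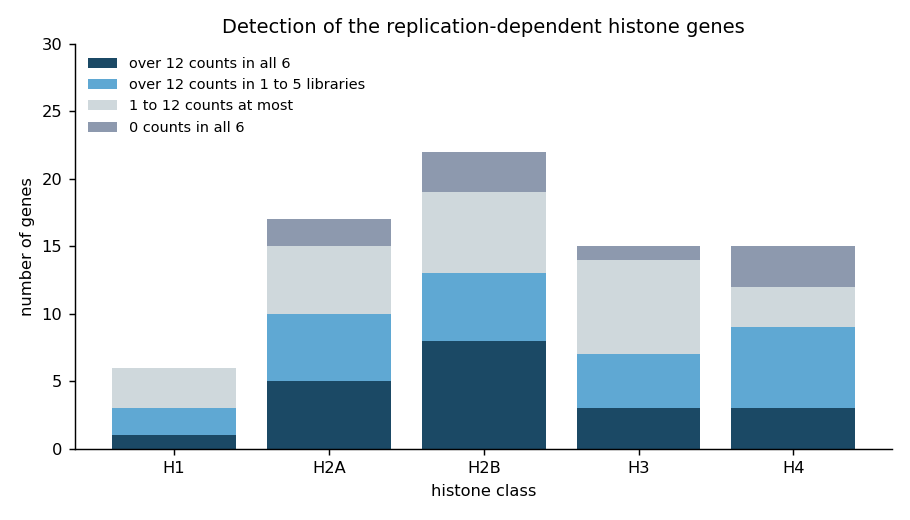
Bars give the number of replication-dependent histone genes (y axis) in each histone class (x axis), divided by how many of the 6 libraries had over 12 deposited counts. H2B held 8 genes detected in all 6 libraries, and H1 held 1.

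Detection differed with the transcript model of a gene. In GENCODE 29, 34 genes had models that hold the coding sequence only, and 2 of these, HIST1H2BK and HIST1H1C, were detected in all 6 libraries while 24 were detected in none. Another 24 genes had a model that runs over 50 bases past the stem-loop, and 11 of them were detected in all 6 libraries and 3 in none. The letters AATAAA, the usual poly(A) signal, stood within the last 50 bases of a model in 23 genes, of which 14 were detected in all 6 libraries and 1 in none. Among the other 52 genes, 6 were detected in all 6 libraries and 32 in none. The median level was 0.422 FPKM over the 23 genes with the signal and 0.0528 FPKM over the 52 without it. The 52 include the 34 genes whose models hold the coding sequence only, where a signal further on could not be seen. For these, no signal in the model does not mean that the gene lacks one. Models with the signal were mostly longer, as the plot of level against model length shows, and a longer model gathers more reads at the same FPKM, so signal and length cannot be told apart here.

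**Figure D2:**
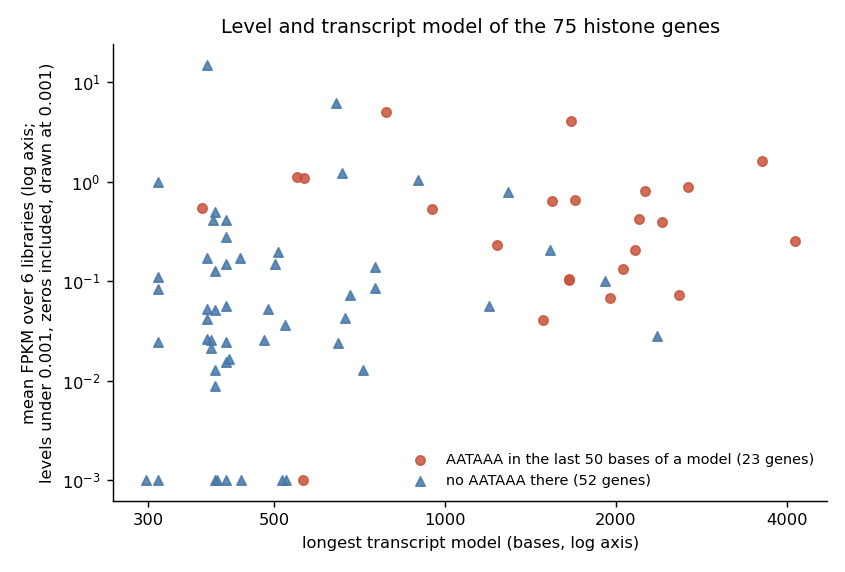
Each point is 1 of the 75 histone genes, with the length of its longest GENCODE 29 model in bases (x axis, log) and its mean level over the 6 libraries in FPKM (y axis, log, with levels under 0.001 drawn at 0.001). Circles mark the 23 genes with AATAAA in the last 50 bases of a model and triangles the other 52, which include the highest gene, HIST1H2BK.

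By FPKM, a few genes carried most of the signal. HIST1H2BK, an H2B gene, stood first in each of the 6 libraries, at 14.8, 17.7 and 11.2 FPKM in Control and 17.5, 12.4 and 16.1 FPKM in OX-LDL. The lowest library was Control 3, and the groups overlapped. Its log2 fold change was 0.11 (SE 0.22, adjusted p = 0.790, edgeR with Benjamini-Hochberg adjustment), and -0.05 without Control 3. The table gives this gene, ENSG00000197903, a span of 381 bases (chr6:27146418-27146798, minus strand), which is the coding sequence alone, whereas RefSeq gives H2BC12 a span of 8566 bases. FPKM divides by the annotated length, so its rank depends on that model. By deposited counts, HIST1H2AC led in Control, at 882, 1225 and 368 against 496, 602 and 347 for HIST1H2BK. HIST2H2BD led in OX-LDL 1 and 2, at 646 and 954 against 494 and 429, and HIST1H2BK led in OX-LDL 3 at 558.

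HIST1H1C encodes the linker histone H1.2 and was the only H1 gene detected in all libraries. It was at 4.83, 5.68 and 3.73 FPKM in Control and 12.6, 4.0 and 6.60 FPKM in OX-LDL. OX-LDL 1 was the highest by far, OX-LDL 2 lay within the Control range and OX-LDL 3 just above it. The log2 fold change of 0.73 (SE 0.41) did not pass (adjusted p = 0.289, edgeR). It was 0.20 without OX-LDL 1 and 1.04 without OX-LDL 2, and passed in neither case. The H1 sum followed this gene, at 5.06 ± 0.858 FPKM in Control and 8.00 ± 4.55 in OX-LDL (SD, n = 3).

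HIST1H2BD, the next H2B gene, was at 6.79, 8.65 and 2.27 FPKM in Control and 5.81, 2.62 and 3.90 FPKM in OX-LDL. Control 3 was the lowest of all 6 libraries, and the groups overlapped widely (log2 fold change -0.49, SE 0.50, adjusted p = 0.569, edgeR). In GENCODE 29 it has a model that ends after the stem-loop and a spliced model without one.

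HIST1H2AC encodes an H2A and was at 6.02, 8.23 and 2.71 FPKM in Control and 2.14, 3.06 and 2.24 FPKM in OX-LDL. Control 1 and 2 lay well above the OX-LDL libraries, but Control 3 lay among them. Its log2 fold change was -1.15 (SE 0.39), with an unadjusted p of 0.0221 and an adjusted p of 0.0981 in edgeR. The result turned on the tool and on Control 3. DESeq2 gave an adjusted p of 0.0119, and without Control 3 edgeR gave a log2 fold change of -1.48 with an adjusted p of 0.0207. Its longest stem-loop model runs 1128 bases past the element, and reads were not assigned to models here.

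Beneath HIST1H2BK, the order of HIST1H1C, HIST1H2BD and HIST1H2AC changed between libraries, and their levels overlapped. The 4 genes held 54.1 to 70.8% of the summed histone FPKM. By deposited counts they held 2172 of 4295, 2826 of 5017 and 1073 of 2786 in Control. In OX-LDL they held 1729 of 3952, 1335 of 3985 and 1590 of 3668. Their sum was 32.5, 40.3 and 19.9 FPKM in Control and 38.1, 22.1 and 28.9 in OX-LDL, and the Control libraries alone spanned the range of the OX-LDL libraries. The sum of the other 71 genes was much steadier, at 17.2, 16.6 and 16.3 FPKM in Control and 20.3, 18.7 and 18.4 in OX-LDL. These groups did not overlap, and their means stood at a ratio of 1.14. Steadiness here is that of a sum and not of each gene. Over the 39 tested histone genes, the median coefficient of variation (SD over mean) was 49.2% in Control and 39.04% in OX-LDL. Without HIST2H2BD, described next, the sum of the other genes was 16.2, 15.8 and 15.3 FPKM in Control and 17.9, 15.8 and 16.9 in OX-LDL. Those groups overlapped.

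**Figure D3:**
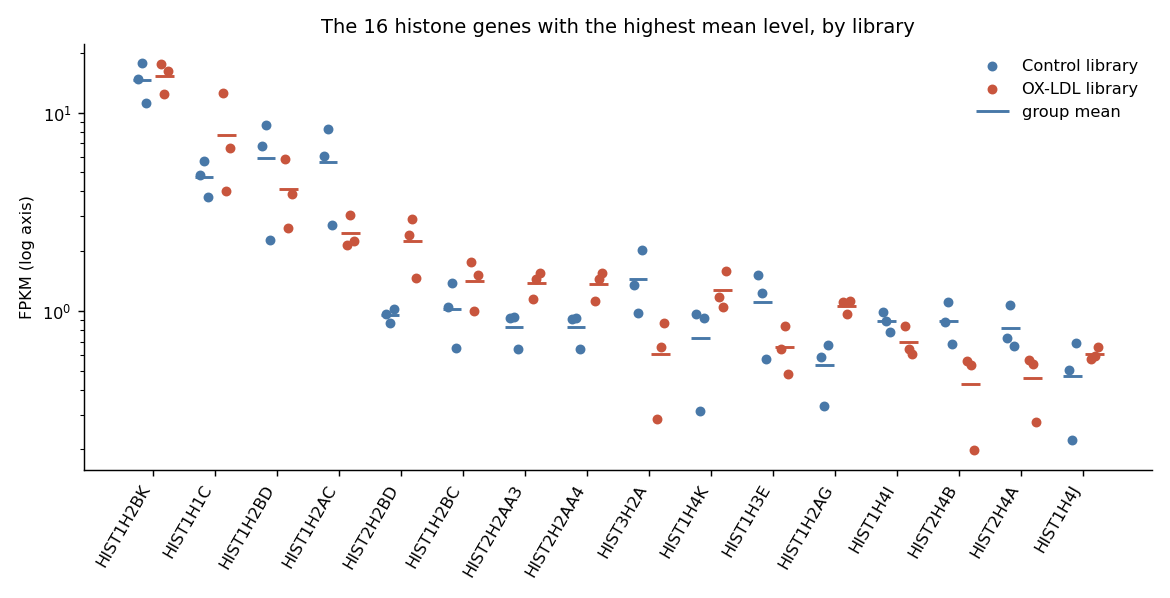
FPKM (y axis, log) of the 16 histone genes with the highest mean, by gene (x axis), with 1 point per library and a line at each group mean, Control in blue and OX-LDL in red. HIST1H2BK lay highest, between 11.2 and 17.7 FPKM, and the OX-LDL points of HIST2H2BD lay above its Control points.

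HIST2H2BD was the only 1 of the 39 tested genes to pass an adjusted p of 0.05 in edgeR, and it rose. It was at 0.968, 0.865 and 1.02 FPKM in Control and 2.42, 2.91 and 1.46 FPKM in OX-LDL. The 3 Control libraries lay close together and below every OX-LDL library, of which OX-LDL 3 was the lowest. Its log2 fold change was 1.28 (SE 0.27, adjusted p = 0.0231, edgeR with Benjamini-Hochberg adjustment). The adjusted p was 0.0658 without Control 1, 0.0877 without Control 2, 0.0578 without Control 3 and 0.0752 without OX-LDL 1, so the call needed each of these libraries. HIST2H2BD is listed as a pseudogene of H2B (ENSG00000220323, chr1:149842875-149846486, plus strand). A model of 493 bases ends soon after the stem-loop, and another of 3612 bases runs 2976 bases past it. The far end overlaps AC239868 (ENSG00000261716), a gene on the opposite strand from 149844498 to 149850937. AC239868 had 652, 728 and 674 counts in Control and 1003, 1160 and 1148 in OX-LDL, and rose by a log2 fold change of 0.74 (SE 0.11, adjusted p = 0.0086, edgeR). The strand setting of the counting is not given in the sources used here, and without strand, reads in the shared stretch cannot be told apart.

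HIST2H2AA3, an H2A gene, starts 138 bases from HIST2H2BD and runs the other way. It was at 0.925, 0.930 and 0.644 FPKM in Control and 1.14, 1.45 and 1.55 FPKM in OX-LDL. All OX-LDL libraries lay above all Control libraries, but the log2 fold change of 0.76 (SE 0.32) did not pass (adjusted p = 0.168, edgeR). HIST2H2AA4 gave nearly the same values, at 0.911, 0.923 and 0.640 FPKM in Control and 1.12, 1.45 and 1.55 in OX-LDL. These are near-identical copies. Every one of the 400 stretches of 150 bases, the read length, in HIST2H2AA3 was also in HIST2H2AA4, and their RefSeq promoter windows shared a run of 299 bases. They cannot be counted as 2 independent measurements.

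HIST1H2BC, an H2B gene, was at 1.04, 1.38 and 0.646 FPKM in Control and 1.76, 0.996 and 1.51 in OX-LDL. The groups overlapped (log2 fold change 0.50, SE 0.37, adjusted p = 0.420, edgeR). HIST3H2A, an H2A gene of the small HIST3 group, was at 1.34, 0.979 and 2.02 FPKM in Control and 0.284, 0.659 and 0.872 in OX-LDL. Every OX-LDL library lay below every Control library, and the log2 fold change was -1.22 (SE 0.48), with an unadjusted p of 0.0410 and an adjusted p of 0.145 in edgeR. HIST1H4K, an H4 gene, was at 0.967, 0.312 and 0.917 FPKM in Control and 1.17, 1.04 and 1.59 in OX-LDL, without overlap but short of the threshold (log2 fold change 0.79, SE 0.53, adjusted p = 0.376, edgeR). It shared all 163 of its 150-base stretches with HIST1H4J, so its reads could belong to either gene.

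Of the 75 genes, 39 (52.0%) reached the mean of 0.1 FPKM set for testing, and 36 did not and were not tested. The 39 were those with more RNA in at least some libraries and do not stand for the other 36. Some of the 39 reached the limit through 1 group alone, OX-LDL for some and Control for others. The 1 gene called by edgeR at an adjusted p under 0.05 was 2.56% of the 39, against 15.3% of the 19510 genes tested and 5.14% of the 7251 tested genes with a mean under 1 FPKM. No histone gene was called lower in edgeR. Over all tested genes, 7.91% were called higher and 7.42% lower. At an unadjusted p under 0.05, edgeR had 5 of the 39 (12.8%), with 2 higher and 3 lower, against 30.4% of all tested genes (15.3% higher and 15.1% lower) and 14.7% of those under 1 FPKM. DESeq2 gave an adjusted p for 24 of the 39 and called 3 of these (12.5%) at 0.05, HIST2H2BD and HIST1H2AG higher and HIST1H2AC lower. Of the 16805 genes with an adjusted p in DESeq2, 26.4% were called, 13.6% higher and 12.7% lower. By a rule of a fold above 2 or below 0.5 with an unadjusted p under 0.05, the same 5 genes passed, 12.8% of the 39 against 6.36% of all tested genes (3.19% higher and 3.16% lower) and 9.31% of those under 1 FPKM. They were HIST2H2BD and HIST1H2AG, higher, and HIST1H2AC, HIST3H2A and HIST2H4B, lower. HIST1H2AG and HIST2H4B are named here after their values were seen.

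HIST1H2AG, an H2A gene, was at 0.586, 0.329 and 0.674 FPKM in Control and 1.10, 0.969 and 1.12 in OX-LDL. The OX-LDL libraries were close together and above each Control library (log2 fold change 1.03, SE 0.31, unadjusted p = 0.0127, adjusted p = 0.0693, edgeR). HIST2H4B, an H4 gene, was at 0.879, 1.11 and 0.682 FPKM in Control and 0.560, 0.531 and 0.198 in OX-LDL, without overlap (log2 fold change -1.01, SE 0.42, unadjusted p = 0.0489, adjusted p = 0.162, edgeR). Its near-identical copy HIST2H4A also lay lower in every OX-LDL library, with a log2 fold change of -0.79 (SE 0.35, adjusted p = 0.188, edgeR). HIST2H4B shared 97.0% of its 150-base stretches with HIST2H4A, so these are not independent measurements either.

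In 9 of the 39 tested genes (23.1%) the levels of the groups did not overlap, against 37.2% of all tested genes and 21.7% of those with a mean under 1 FPKM. OX-LDL was higher in 6 of them and lower in 3, where over all tested genes 16.8% lay higher and 20.5% lower. The share was near that of tested genes with a mean under 1 FPKM. The sets are unlike, because HIST2H2BD, HIST2H2AA3, HIST2H2AA4 and HIST3H2A had means over 1 FPKM. The 6 were HIST2H2BD, HIST2H2AA3, HIST2H2AA4, HIST1H4K, HIST1H2AG and HIST1H2AI, and the 3 were HIST3H2A, HIST2H4A and HIST2H4B. Near-identical copies count here as separate genes, though they are not independent. In HIST1H2AI, named after its values were seen, the counts were 0, 4 and 4 in Control and 4, 21 and 8 in OX-LDL, of which 1 library was above the detection limit. Its mean was 0.0585 FPKM in Control and 0.237 in OX-LDL, so it reached the 0.1 FPKM set for testing through OX-LDL only.

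The fold changes of the tested histone genes pointed both ways, as the plot by class shows. The median log2 fold change was 0.25 (middle range -0.61 to 0.76), with 24 genes above 0 and 15 below, against a median of -0.00 over all tested genes. It was -0.05 without OX-LDL 1 and 0.18 over the 31 genes detected in both groups. Of the other 8 genes, 2 had at most 12 counts in every library, and 6 had at most 12 counts in every library of 1 group. With those 2 left out and those 6 set to the bound that the limit allows, the median over 37 genes was 0.09. By class, the medians were 0.46 for the 2 tested H1 genes, 0.69 for 10 H2A, 0.27 for 10 H2B, 0.18 for 8 H3 and -0.31 for 9 H4 genes. Over the genes detected in both groups, they were 0.25 for 6 H2A, 0.43 for 9 H2B, 0.25 for 7 H3 and -0.79 for 7 H4 genes. The H2A sum went the other way from the H2A median, at 10.6 ± 2.10 FPKM in Control and 8.58 ± 0.965 in OX-LDL (SD, n = 3), a ratio of 0.81. The median SE of a log2 fold change was 0.53 over the tested histone genes and 0.20 over all tested genes. The H4 sum was nearly level across libraries, at 4.43, 4.42 and 4.41 FPKM in Control and 4.38, 4.07 and 4.47 in OX-LDL, although single H4 genes differed in both directions.

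**Figure D4:**
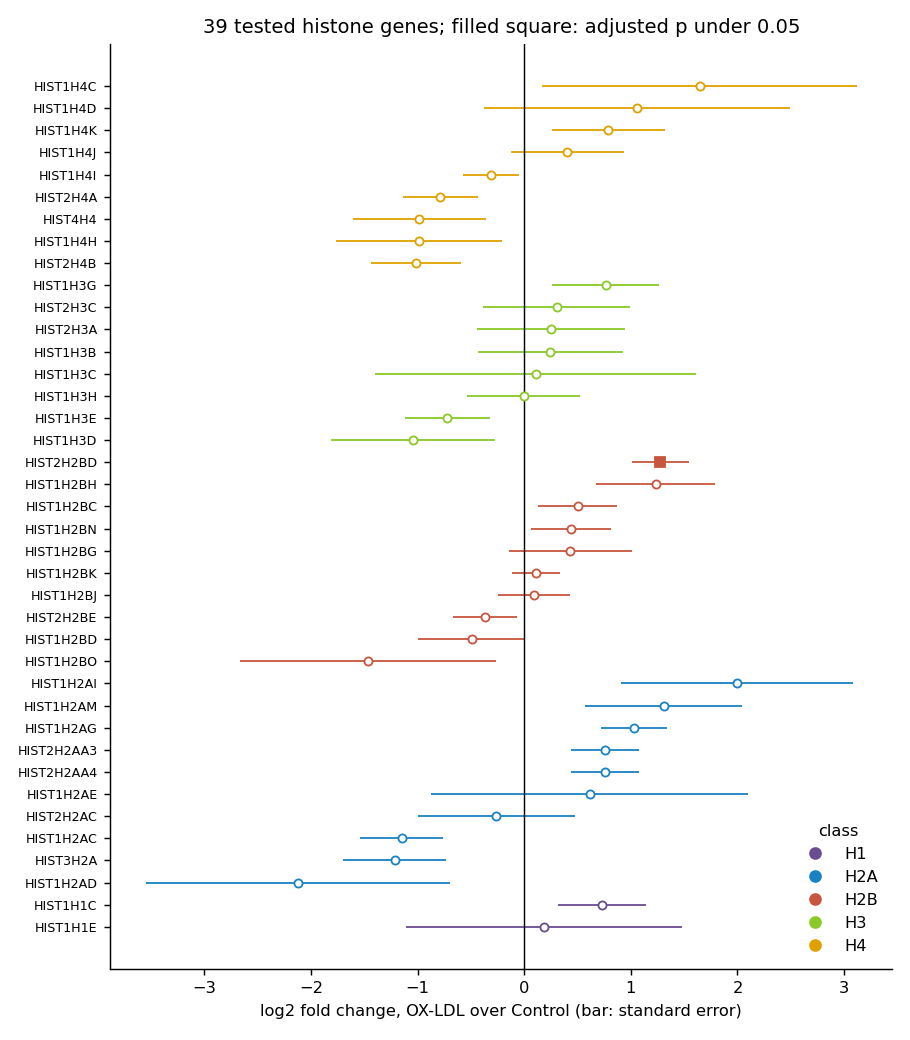
Log2 fold change of OX-LDL over Control (x axis) with its standard error as a bar, for each of the 39 tested histone genes (y axis), coloured by class. The filled square is HIST2H2BD at 1.28, and the open circles are genes that did not pass an adjusted p of 0.05.

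**Figure D5:**
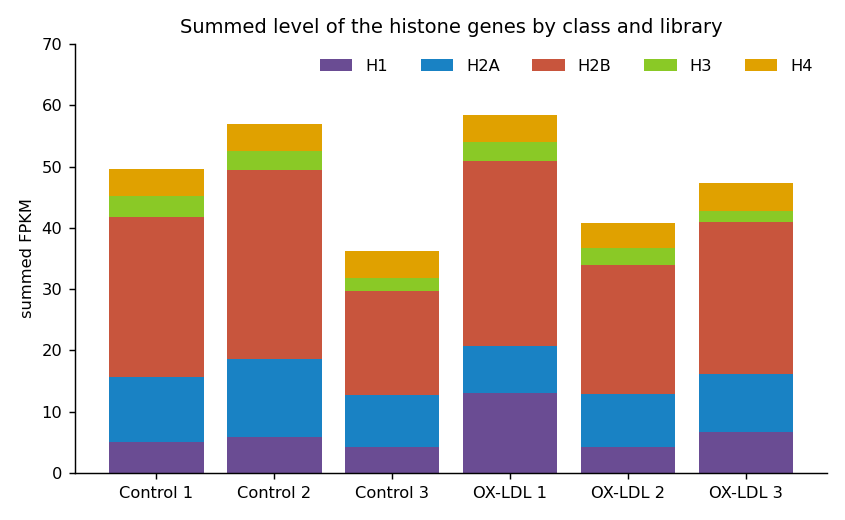
Summed FPKM of the histone genes (y axis) in each of the 6 libraries (x axis), stacked by class. Control 3 had the lowest total, 36.2 FPKM, and OX-LDL 1 the highest, 58.4 FPKM, the groups overlapped, and the H2B genes made up the largest share of each bar.

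The typical spread between libraries of a group was larger in these genes than over all tested genes. The median coefficient of variation was 49.2% in Control and 39.04% in OX-LDL over the 39 tested histone genes. It was 14.4% and 15.4% over all tested genes, and 33.1% and 34.5% over the 5111 tested genes whose level lay in the middle range of the histone genes. These sets are unlike, because the 39 include histone genes below that range. The range was also set on FPKM and not on counts, and a shorter model gathers fewer reads at the same FPKM.

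Histone genes often lie head to head. In 13 pairs the start sites were at most 1000 bases apart, and 12 of these joined an H2A to an H2B gene. In 3 pairs both genes were detected in all 6 libraries. HIST1H2AC and HIST1H2BC start 218 bases apart, and the promoter window printed above for HIST1H2AC shares a run of 255 bases with that of HIST1H2BC read on the other strand. Within a library the level of HIST1H2AC was 5.79, 5.97 and 4.19 times that of HIST1H2BC in Control and 1.22, 3.07 and 1.48 times in OX-LDL. The ratio was lower in each OX-LDL library than in each Control library. An exact two-sided permutation test of the log2 ratio gave p = 0.1, the smallest that 3 libraries against 3 allow, and 0.4 after Benjamini-Hochberg adjustment over the 4 ratios computed, so the design could not show this difference at 0.05. The 4 pairs were chosen after their values were seen. The ratio of HIST1H2AG to HIST1H2BJ was 1.02, 0.546 and 1.73 in Control and 2.48, 1.62 and 2.01 in OX-LDL, and overlapped. The ratios of HIST2H2BD to HIST2H2AA3 and of HIST2H2AC to HIST2H2BE overlapped as well (exact permutation p = 0.3 and 1.0).

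In contrast to the replication-dependent genes, the replacement histone genes, which are made outside S phase too and mostly carry poly(A) tails, were mostly well measured, and all 12 listed were tested. Of these, 2 rose, 1 fell and 9 did not pass at an adjusted p of 0.05 in edgeR. By the same test, 7.91% of all tested genes were called higher and 7.42% lower. H1F0, the linker histone of resting and differentiated cells, was at 30.5, 37.4 and 40.7 FPKM in Control and 16.7, 15.8 and 14.7 in OX-LDL. It lay lower in every OX-LDL library (log2 fold change -1.17, SE 0.12, adjusted p = 0.0024, edgeR). H2AFY, encoding macroH2A, rose by a log2 fold change of 0.37 (SE 0.06, adjusted p = 0.0123) and CENPA, the H3 variant of centromeres, by 0.45 (SE 0.09, adjusted p = 0.0223), both in edgeR.

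Genes that make, end and handle histone mRNA mostly did not pass the threshold, as was so for most tested genes, of which 15.3% were called. Of 15 genes for the processing, translation and decay of histone mRNA, 1 rose and none fell in edgeR at an adjusted p of 0.05, and CPSF3, the nuclease that makes the cut, was the one that rose (log2 fold change 0.38, SE 0.09, adjusted p = 0.0327). SLBP was at 72.5, 81.4 and 81.9 FPKM in Control and 64.7, 73.3 and 63.3 in OX-LDL, with a log2 fold change of -0.19 (SE 0.09, adjusted p = 0.183, edgeR). Another list held 10 tested genes, either of the histone locus body, where histone genes are transcribed, or of histone gene transcription more widely. Of these, E2F1, an activator of S phase genes, fell by 0.64 on the log2 scale (SE 0.16, adjusted p = 0.0416, edgeR), and 9 did not pass. NPAT, the coactivator of histone transcription, had a log2 fold change of -0.22 (SE 0.14, adjusted p = 0.353, edgeR).

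Of 16 histone chaperones, 3 rose and 3 fell in edgeR at an adjusted p of 0.05, where 7.91% of all tested genes rose and 7.42% fell. ASF1A (log2 fold change 0.42, adjusted p = 0.0286) and ASF1B (0.32, 0.0319), which carry H3 and H4, rose together with RBBP7. SSRP1, a subunit of FACT, fell by 0.28 on the log2 scale (adjusted p = 0.0286), and DAXX and HIRA, which deposit replacement H3, were the others that fell. Of 20 genes of S phase and DNA replication, set against the same shares, 2 rose and 18 did not pass. The 2 were subunits of ribonucleotide reductase, which makes the building blocks of DNA. RRM2 was at 7.99, 8.02 and 9.60 FPKM in Control and 14.0, 19.96 and 28.2 in OX-LDL, higher in each OX-LDL library (log2 fold change 1.31, SE 0.25, adjusted p = 0.0168, edgeR). RRM1 rose by 0.87 (SE 0.11, adjusted p = 0.0051, edgeR). The median log2 fold change over the 20 genes was 0.00. Of the 13 genes of these lists called in edgeR, H1F0 and RRM1 passed in every alternative run. H2AFY lost its call without OX-LDL 3, and RRM2 without Control 1 or Control 2. The other 9, namely CENPA, CPSF3, E2F1, ASF1A, ASF1B, RBBP7, SSRP1, DAXX and HIRA, each lost it without Control 2, without OX-LDL 1 and without OX-LDL 3.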

How the data were processed

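RNA-seq of poly(A)-selected RNA (paired reads of 150 bases) was analysed in 6 HK-2 libraries, grouped by their labels. The authors deposited 1 table of genes with estimated counts, not scaled for library size, and FPKM values scaled by gene length and depth. The submitters' processing notes name cutadapt 1.9, HISAT2 2.0.4, StringTie 1.3.4d, edgeR, DESeq2 and GRCh38, and the strand setting is not given in the sources used here. The counts were whole numbers and were used as deposited, and every count of 0 is listed at 0.0001 FPKM and shown here as 0. Low counts come in steps of 4, read as about 4 counts per read pair. Of the 75 genes, 73 had identical coordinates in GENCODE 29.

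The main test was edgeR (version 4.0.16, R 4.3.3; TMM, glmQLFit and glmQLFTest, group as the only term) on 19510 genes whose mean reached 0.1 FPKM, with Benjamini-Hochberg adjustment over all of them. The standard error of a log2 fold change was taken from its quasi-likelihood F, as the change over the root of F. The steps were tested on simulated data. Alternatives were DESeq2 (1.42.0), limma (3.58.1) on log2(FPKM + 0.1) or log2(FPKM + 1), other size factors, other level limits, counts divided by 4, a replicate block, TPM in place of FPKM, and leaving out each library. No 2 libraries of a group were alike within sampling noise (chi-square per gene of 14.8 to 25.5).

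The members, gene lists and tests were chosen with earlier results of these data known. Genes are named in the text if called, if among the 10 highest by mean FPKM, if among the 5 largest changes at a mean of at least 1 FPKM, or as near-identical copies of these. From each pathway list SLBP, NPAT and up to 4 genes of smallest p are named. The markers, DAXX and HIRA are named as examples outside this rule. Promoters and gene spans are from RefSeq, and transcript models from GENCODE 29.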

Additional observations from a re-analysis of the deposited data

How the results depend on the processing

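The count of 1 called histone gene, HIST2H2BD, was 3 with DESeq2 and 2 with limma on log2(FPKM + 1), which both added HIST1H2AG, and DESeq2 also HIST1H2AC. It was 0 to 1 when a library was left out. The 1 gene called without Control 3 was HIST1H2AC and not HIST2H2BD. The pathway lists held 12, 15, 10, 16 and 20 tested genes in the main test, and the carry-over list 6. They had 13 called genes in the main test, where 15.3% of all tested genes were called. With DESeq2 they had 20, where 26.4% of the genes with an adjusted p were called. They had 7 with no minimum level, and 3 to 17 when a library was left out. The shares over all genes in the other settings are not given here. With a replicate block, 0 histone genes and 6 pathway genes were called, and HIST2H2BD had a log2 fold change of 1.23 with an adjusted p of 0.0697 (edgeR). Over all tested genes, same-numbered libraries did not deviate together (correlations of -0.041, -0.0031 and 0.0356). The labels do not say whether they share more than a number. On the TPM scale 24 and not 9 histone genes had a mean of at least 1. With a library left out, the log2 fold change of HIST1H2BK ran from -0.0485 (without Control 3) to 0.262, and the median of the tested histone genes from -0.0526 (without OX-LDL 1) to 0.379. Among the named genes, no other direction turned. With no minimum level, E2F1, CPSF3, ASF1B, RBBP7, DAXX and HIRA lost their calls, and with the block CENPA, CPSF3, SSRP1, ASF1B, RBBP7, DAXX and HIRA did. RBBP7 also lost it with limma on log2(FPKM + 0.1), and HIRA with RLE size factors and with counts divided by 4. The cause of these shifts was not tested. The 33 genes at 12 or fewer counts in every library could not be measured at this depth, and the cause of their low counts was not tested.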
